A study of Mus musculus with 20 samples.

Results

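These results describe 1911 m6A site probes of a mouse microarray whose RNA was detected in heart muscle while its methylated, enriched fraction was not. They were chosen from the scanner's detection flags. The probe had to be well above background in the input channel on all 10 arrays and well above background in the modified RNA channel on at most 1 of 10. Of 14319 single-site probes, 13148 (91.8%) were detected in the input on every array and are called expressed sites here. The 1911 members made up 14.5% of these expressed sites and 13.3% of all site probes. At 1380 members the modified RNA was detected on 0 arrays and at 531 on 1 array, in either genotype.

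RNA was taken from the myocardium of 10 male mice, 5 labelled NPRA-/- (called KO) and 5 labelled NPRA+/+ (called WT), and no treatment was given. The title of the study calls the deficiency cardiac-specific and the growth protocol names a conditional floxed allele (NprAflox/flox). The Cre driver, the age of the mice and the share of heart cells that lost the receptor are not given in the sources used here. Each mouse had 1 array with 2 dyes. The labels list 20 samples, 1 for each dye of each mouse. Both samples of a mouse hold the same scan (10 of 10 mice), and each mouse counted once.

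N6-methyladenosine (m6A) is a methyl mark that a methyltransferase complex adds to adenosines of messenger RNA, mostly within a short sequence context known as DRACH, and that reader proteins bind to alter splicing, stability and translation. MazF is a bacterial endoribonuclease that cuts RNA at the sequence ACA when its first adenosine lacks the mark, so an RNA that is methylated at a probed ACA stays whole. In this assay MazF-digested RNA was then enriched with an m6A antibody and labelled with Cy5 (the modified RNA). Undigested RNA was labelled with Cy3 (the input). Cy5 at a probe therefore needs an RNA that is present, uncut and bound by the antibody, and an absent Cy5 signal does not by itself show an unmethylated site. NPRA is a guanylyl cyclase at the cell surface that makes cyclic GMP when a natriuretic peptide of the heart binds it, and it lowers blood pressure and restrains growth of the heart. The probes carry vendor identifiers that are not paired with genes, positions or sequences in the sources used here, so sites are named by identifier, and neither the targeted gene nor markers of heart cell types were checked.

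The share of sites with detected modified RNA differed between the arrays, and with it what counted as missing. Input was detected at 93.6% to 98.0% of site probes on each array. Modified RNA was detected at 72.3%, 70.0%, 74.9%, 64.0% and 73.2% of site probes in KO replicates 1 to 5. In WT replicates 1 to 5 these shares were 78.2%, 58.4%, 76.0%, 47.9% and 45.1%. The lowest 2 shares belong to WT replicates 4 and 5, the only mice on slide 2. Slides were inferred: arrays with the same scan date in the file headers were taken as 1 slide. Array rows were inferred too, from the leading number of the barcode field in those headers. The share of expressed sites with no detected modified RNA ran accordingly from 16.6% in WT replicate 1 to 51.0% in WT replicate 5. On slide 1, 4 of the 5 KO mice were in array row 1, while KO replicate 3 and WT replicates 1 to 3 were in row 2. WT replicates 4 and 5 were in row 1 of slide 2. Precision is limited throughout by there being only 5 arrays for each genotype.

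The 531 members with 1 detection were uneven over the mice. In KO replicates 1 to 5 the detections numbered 35, 56, 109, 7 and 39, and in WT replicates 1 to 5 they numbered 187, 1, 93, 3 and 1. The mice with most detections, WT replicate 1 and KO replicate 3, also had high detection over all site probes, and those on slide 2 had few of either. The genotypes overlapped. Without WT replicate 1, a site detected on at most 1 of the 9 remaining arrays would be a member in 2271 cases. Just outside the rule stood 422 expressed sites with modified RNA on 2 arrays. Their median input was -2.80, against -2.84 for members with 1 detection and -2.98 for members with 0. These values are log2 of the processed Cy3 signal minus the 75th percentile of the array, called the scaled input, and a site at 0 is as bright as that percentile.

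The members were dim in the input as a group. Their median scaled input was -2.94 (quartiles -3.52 and -2.27), against -1.10 (quartiles -2.25 and 0.40) in the 11237 other expressed sites. The other sites were 3.58-fold brighter at the median. The 5944 sites with modified RNA on all 10 arrays had a median of -0.04. The median of the members by mouse was -3.02, -3.05, -2.88, -2.95 and -2.94 in KO and -3.01, -2.93, -2.87, -2.90 and -2.78 in WT. These medians averaged -2.97 ± 0.07 in KO mice and -2.90 ± 0.08 in WT mice (SD, n = 5 each), with overlapping groups. Members lay below the other sites on 10 of 10 arrays, by -1.93 to -1.75 (mean -1.83 ± 0.06, SD, n = 10). Since detection in both channels chose the members, these levels are a description and were not tested. Probe brightness also depends on how well a probe hybridises, so a dim input is not a measured copy number.

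The separation was not complete in either direction. Of the members, 100 (5.23%) were brighter than the median of the other expressed sites. At the same time 177 sites (2.98% of those with modified RNA on all arrays) were dimmer than the median member. Of the 2302 expressed sites below the median member, 41.5% were members, so most sites as dim as the dimmer members did have modified RNA detected on 2 or more arrays.

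**Figure D1:**
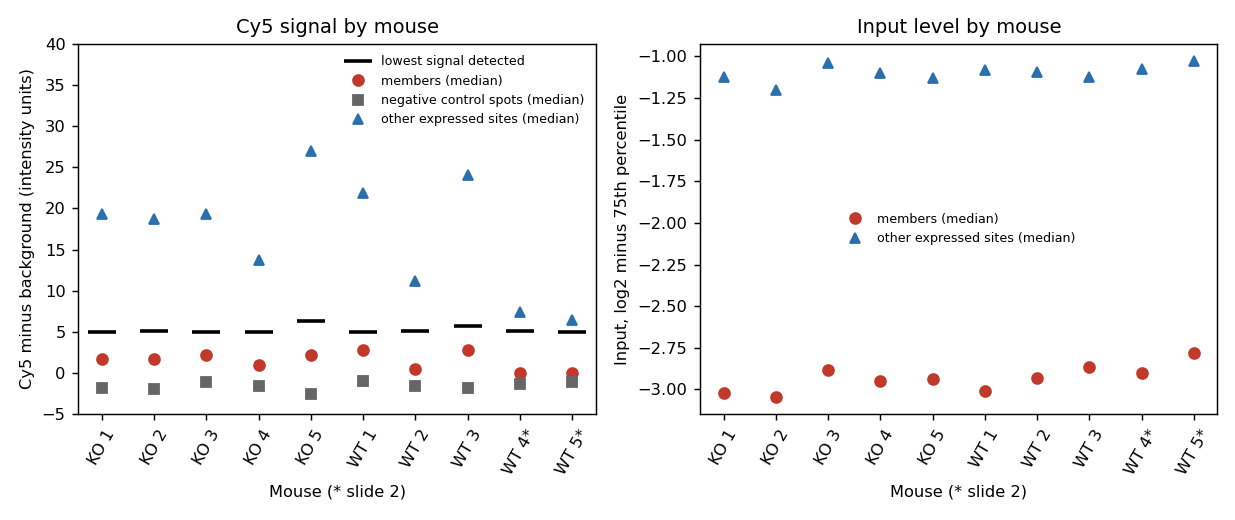
Median signals per mouse, with slide 2 marked by an asterisk. In Cy5 minus background (left, intensity units) the members lie between the negative control spots and the lowest detected signal on every array, and in scaled input (right, log2) they lie below the other expressed sites on every array.

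The share of members fell with the input level. The expressed sites were divided into 10 bins of nearly equal size by their mean scaled input over the 10 mice, from bin 1 (dimmest) to bin 10 (brightest). In bin 1, 627 of 1315 sites were members (47.7%, Wilson 95% interval 45.0 to 50.4, which covers counting error only). The share was 31.7% in bin 2, 25.6% in bin 3, 18.1% in bin 4 and 10.4% in bin 5. It was 6.69% in bin 6, 3.42% in bin 7, 1.52% in bin 8 and 0.152% in bin 9, where 2 sites were members. In bin 10, 0 of 1315 sites were members, which allows a share of up to 0.228% (3 sites of 1315). Bins 1 to 3 held 1381 members (72.3%), bins 1 to 5 held 1756 (91.9%) and bins 7 to 10 held 67 (3.51%).

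Sites with modified RNA on all 10 arrays ran the other way, from 5.02% of bin 1 (66 sites) to 98.3% of bin 10. In bin 1, members and these 66 sites sat side by side at like input levels.

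**Figure D2:**
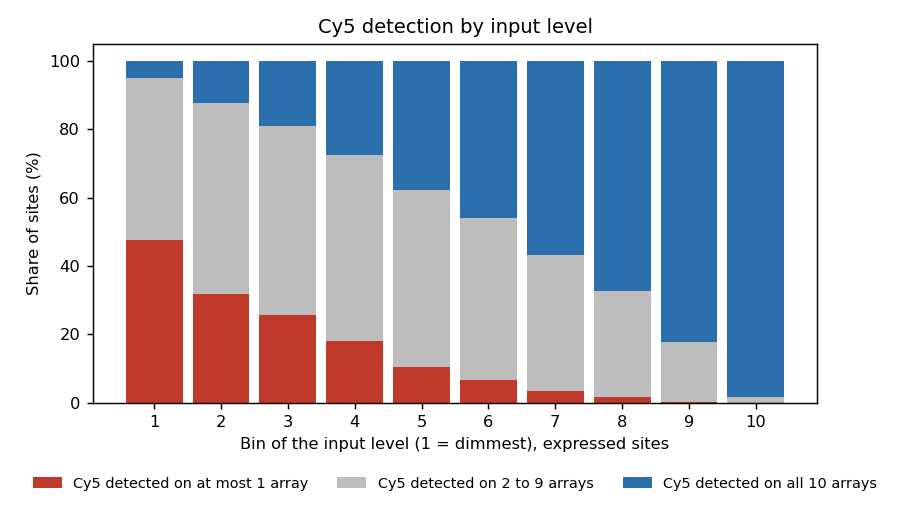
Share of expressed sites (%, vertical axis) in each of 10 bins of the scaled input (horizontal axis, 1 = dimmest) by the number of arrays with detected Cy5. Members fall from 47.7% of bin 1 to 0 in bin 10, while sites detected on all 10 arrays rise from 5.02% to 98.3%.

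Spike-in RNA, present at the same amount in the modified and the input fraction per the labels' protocols, also lost Cy5 at low input. Of 102 spike-in probes, 74 were well above background in Cy3 on all arrays, and 7 of these had Cy5 on at most 1 array. In the input range of bins 1 to 5, 6 of 54 spike-in probes had Cy5 on at most 1 array and 13 on all arrays. In the range of bins 6 to 10, 1 of 20 had Cy5 on at most 1 array and 19 on all. Among sites the same ranges held 1756 members of 6574 (26.7%) and 155 of 6574 (2.36%). The share was thus larger at sites than at spike-in probes in bins 1 to 5, and smaller in bins 6 to 10. Input levels within a range were not matched. The sources used here do not say whether the spike-in RNA carries m6A.

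The Cy5 signal of the members was low, with medians above those of the negative control spots. After background subtraction the median over members was 1.67, 1.65, 2.17, 0.951 and 2.20 intensity units in KO replicates 1 to 5. In WT replicates 1 to 5 it was 2.82, 0.471, 2.74, 0.0324 and 0.0266 units. The 77 negative control spots had medians from -2.55 to -1.01 units, below the members on 10 of 10 arrays. The distributions overlapped: the share of members above every negative control spot was 0.105% in KO replicate 1, 0.157% in KO replicate 2 and 2.83% in WT replicate 4, and highest at 75.2% in WT replicate 3. In each of KO replicates 1, 2 and 3, 1 negative control spot was itself flagged as well above background. The lowest signal that was flagged as detected was 5.00 to 6.31 units, depending on the array. By the scanner's weaker flag, positive and significant against background, 20.4% of members carried Cy5 in WT replicate 5 and 82.9% in WT replicate 1. With that flag in place of well above background, 158 sites would be members. At the other members Cy5 was positive and significant on 2 or more arrays.

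How many members the input level alone would leave undetected was computed from each array's own brightness. The Cy3 signal of a site was multiplied by the median Cy5/Cy3 ratio of the expressed sites of bins 6 to 10 on that array, which ran from 9.12% in WT replicate 4 to 35.5% in WT replicate 1. The product was set against the lowest detected Cy5 signal of the same array. By this reckoning 965 of 1911 members (50.5%) would be detected on at most 1 array, as they were. The other 946 (49.5%) would be detected on 2 or more arrays, and 68 on all 10. Among the other expressed sites 13.8% would be detected on at most 1 array, and among sites with modified RNA on all arrays 3.95% would. Sites just outside the rule, with modified RNA on 2 arrays, were close to the members at 46.9%. With the ratio taken over all expressed sites the members' share was 38.8% and that of the other expressed sites 8.33%. Both ratios were chosen after the data were seen.

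Since the computed Cy5 is the input times 1 ratio per array, its split by input level follows from the calculation. The 965 members all came from the 1756 of bins 1 to 5 (55.0% of them), and 0 of the 155 members of bins 6 to 10 were computed to be undetected. The calculation takes 1 ratio for all sites of an array, and what sets the ratio of a single site was not tested. It also makes no allowance for an offset in Cy5, although the negative control spots had medians of -2.55 to -1.01 units. How far such an offset shifts the computed counts, above all at dim sites, was not tested.

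The 67 members of bins 7 to 10, called bright members here, are where input level and missing Cy5 part most clearly. At 41 of them modified RNA was detected on 0 arrays and at 26 on 1 array, which was KO replicate 1 in 7 cases, KO replicate 2 in 14, KO replicate 5 in 3 and WT replicate 1 in 2. Their median Cy5 was 2.74, 3.77, 1.70, 0.963 and 3.25 units in KO replicates 1 to 5 and 2.55, 0.743, 2.13, 0.120 and -0.151 units in WT replicates 1 to 5. The Cy5 computed from their input was 23.1, 27.3, 19.6, 15.0 and 42.0 units in KO and 18.7, 13.1, 35.9, 7.71 and 6.29 units in WT. Measured medians were below the limit and computed medians above it on all 10 arrays. On 9 arrays all 67 were computed to be detectable, and in WT replicate 5 it was 58. Averaged over the arrays without detection, with the detection limit in place of any lower signal, the ratio of these sites was at least 2.48-fold to 9.32-fold below the array's median ratio, with a median bound of 3.32-fold. A low ratio is what chose them, so this is a description.

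**Figure D3:**
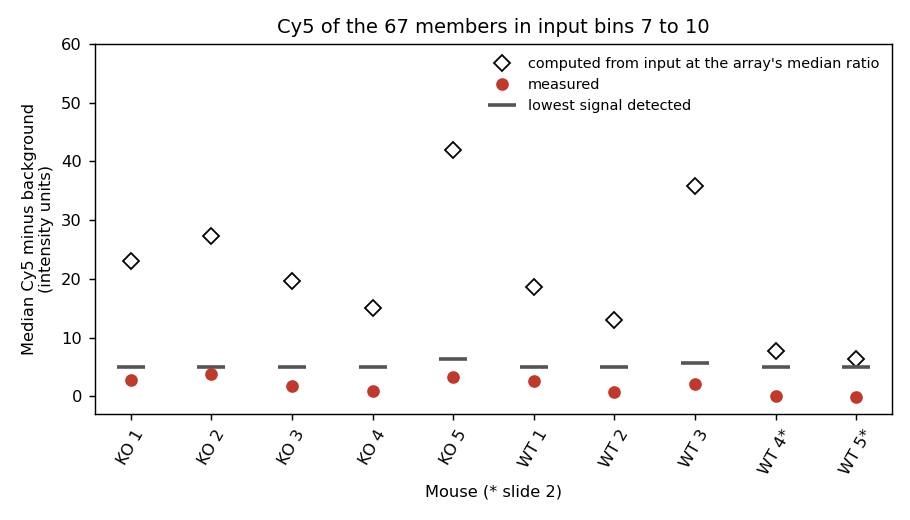
Median Cy5 minus background (intensity units) of the 67 members of bins 7 to 10, per mouse, with slide 2 marked by an asterisk. Circles show the measured signal, bars the lowest detected signal and diamonds the signal computed from the input, which lies above the bar on every array while the circle lies below it.

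The brightest member was ASMM10m6ADRACA1004843404, with a mean scaled input of 1.04. Its Cy3 signal minus background was 386, 472, 260, 222 and 531 units in KO replicates 1 to 5 and 163, 290, 421, 225 and 176 units in WT replicates 1 to 5. Its Cy5 signal was 2.16, 5.08, 0.816, -0.719 and 0.997 units in KO and 2.28, -0.96, 4.03, 1.11 and 0.88 units in WT. Only the 5.08 units of KO replicate 2 were flagged as detected, and the ratio over the other arrays was at least 9.32-fold below their median. The input was high in every mouse and overlapped between the genotypes.

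The next brightest was ASMM10m6ADRACA1004948084, with a mean scaled input of 0.59 and modified RNA detected in KO replicate 2 only. Its scaled input was 0.80, 1.20, 0.39, 0.47 and 1.08 in KO and 0.26, 0.47, 0.66, 0.31 and 0.30 in WT. Its ratio was at least 6.57-fold below the median. At the other end, ASMM10m6ADRACA1003481494 had the lowest input of all members, -4.43, with 5.08 to 7.76 units of Cy3 per array. Cy5 was not detected for it on any array and was computed to be detectable on 0 arrays, which does not place its ratio below the array's median.

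Spot number, position and spread between mice were not used by the rule. All 1911 members had a single spot, and 0 were saturated in Cy3 on any array. They were spread over the array surface, with members making up 13.6% to 15.2% of expressed sites in each of 4 bands of spot rows and 14.3% to 14.8% in each of 4 bands of columns. The median SD between mice of 1 genotype was 0.217 in members and 0.218 in other expressed sites, on the log2 scale of the scaled input. In bin 1 it was 0.235 in members and 0.264 in others, and in the 67 bright members it was 0.251 against 0.226 in the 5192 other sites of those bins. The authors' deposited value table lists 10004 probes, of which 0 are members and 9936 are other expressed sites. Their absence follows from the flag that also chose the members, since every probe in the table had modified RNA detected on at least 5 arrays. Of the 10009 site probes that met this, 5 are not in it. A comparison run on that table alone therefore never includes the members.

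The genotype comparison asked whether the RNA at these sites differed in abundance between KO and WT myocardium. It used the input, since Cy5 was well above background on at most 1 array at each member, and the rule did not use the genotype. Few members differed. In the limma fit over 13941 probes, 22 of 1911 members (1.15%) had an adjusted p under 0.05, against 1.66% of all probes tested. Of these, 4 were higher in KO (0.209% of members, 0.617% of all probes) and 18 were lower (0.942% of members, 1.05% of all probes). The lean towards lower calls was not kept with quantile normalization, where 12 members were higher (0.628%, against 1.2% of all probes) and 13 lower (0.680%, against 0.904%). With spike-in scaling, limma called 0 members (171 at an unadjusted p under 0.05). With a normexp background correction it called 0 (290 at an unadjusted p). The normexp setting added an offset of 50 units, which compresses log2 differences at dim sites. At an unadjusted p under 0.05 the shares were 19.7% of members and 20% of all probes. The KO and WT values did not overlap at 24 members that were higher in KO (1.26%, against 2.52% of all probes) and at 51 that were lower (2.67%, against 2.1%). In bin 1, where members and other sites have like levels, 9 of 627 members (1.44%) and 10 of 688 other sites (1.45%) were called. Fewer cells of a type and less RNA per cell cannot be told apart in these samples of whole tissue.

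The median member changed by -0.06 (log2 KO minus WT) and so did the median of all probes. The sign of the members' median depended on the setting: it was 0.08 with quantile normalization (all probes 0.02), 0.13 with spike-in scaling (all probes 0.13) and 0.08 with slide and array row blocked (all probes 0.08). Large changes were fewer among members: 3 (0.157%) had a fitted change beyond 1 in size, against 0.875% of all probes. The share in the other expressed sites was 0.863%. These shares were not matched on input level, and most members are dim. The 18 called lower had changes of 0.44 to 0.91 in size with a median of -0.77, and at all 18 the KO values lay wholly below the WT values. The 4 called higher had changes of 0.55 to 1.53, and the groups did not overlap at 2 of them. The one with 1.53 had overlapping groups. Calls and overlap rest on the same values, so a lack of overlap adds no separate support to a call.

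**Figure D4:**
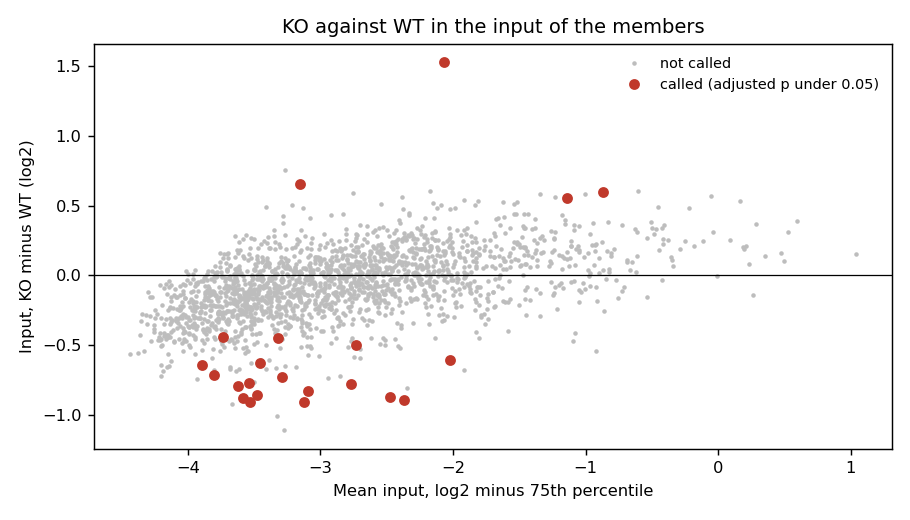
Fitted change of the input (log2 KO minus WT, vertical axis) against the mean scaled input (log2, horizontal axis) for the 1911 members, with the 22 called members as large points. The 18 called lower have an input of -2.02 or less, and the cloud rises from a median of -0.21 in bin 1 to 0.19 in bins 7 to 10.

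The largest called fall without overlap was at ASMM10m6ADRACA1002228974. Its scaled input was -3.54, -3.60, -3.58, -3.73 and -3.44 in KO replicates 1 to 5 and -2.89, -2.66, -2.34, -2.50 and -2.96 in WT replicates 1 to 5. Every KO mouse lay below every WT mouse. It was 1.88-fold lower in KO (log2 -0.91, SE 0.13, limma adjusted p = 0.0115). Within slide 1 the call held (log2 -0.95, limma adjusted p = 0.0373), and modified RNA was detected on 0 arrays.

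ASMM10m6ADRACA1001486204 fell by a like amount. Its scaled input was -3.99, -4.44, -3.41, -3.95 and -4.15 in KO and -2.71, -3.18, -3.40, -3.11 and -3.02 in WT. KO replicate 3 and WT replicate 3 nearly met at the border of the groups. It was 1.87-fold lower in KO (log2 -0.91, SE 0.18, limma adjusted p = 0.0352). The call was lost with slide as a block (limma adjusted p = 0.108) and within slide 1 (limma adjusted p = 0.154), at a log2 change of -0.89. Its 1 detection in Cy5 was KO replicate 3.

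The called rises without overlap were smaller. ASMM10m6ADRACA1003096434 had a scaled input of -2.65, -2.92, -2.78, -2.97 and -2.83 in KO and -3.94, -3.34, -3.56, -3.51 and -3.07 in WT. It was 1.57-fold higher in KO (log2 0.65, SE 0.15, limma adjusted p = 0.0474). Blocking on slide (limma adjusted p = 0.0745) or taking slide 1 alone (limma adjusted p = 0.105) lost the call at a log2 change of 0.78. With the normexp background correction and its offset of 50 units, which change the signal at dim spots, its direction turned (log2 -0.024).

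ASMM10m6ADRACA1004279584 was the other rise, and it is also 1 of the 67 bright members. Its scaled input was -0.46, -0.44, -0.82, -0.61 and -0.54 in KO and -1.46, -1.07, -0.89, -1.17 and -1.26 in WT. It was 1.51-fold higher in KO (log2 0.60, SE 0.12, limma adjusted p = 0.0369). This call too was lost with slide as a block (limma adjusted p = 0.113) and within slide 1 (limma adjusted p = 0.164), at a log2 change of 0.57. Cy5 was detected on 0 arrays, which places its ratio at least 2.62-fold below the median.

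**Figure D5:**
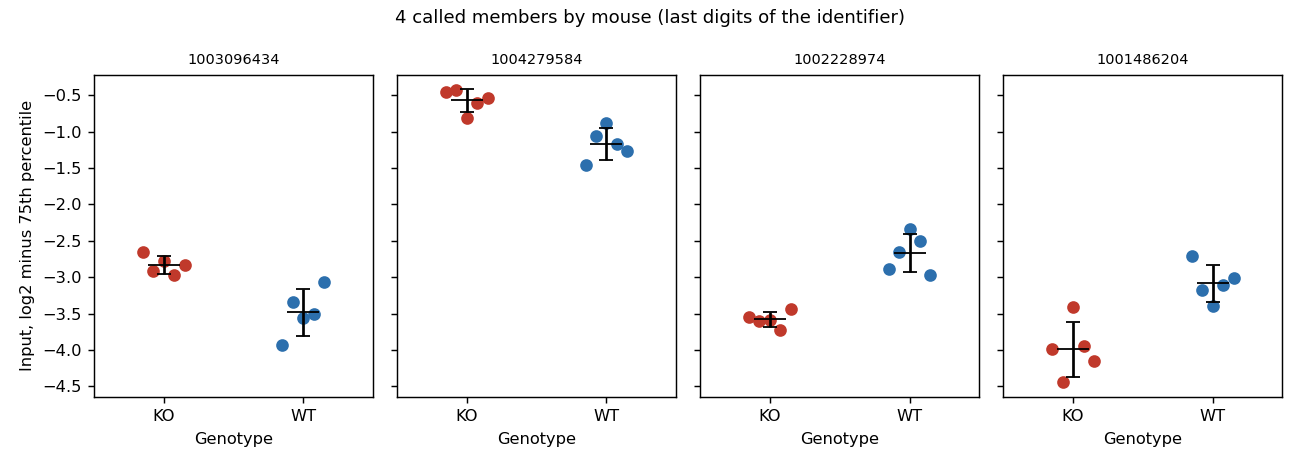
Scaled input (log2 minus the 75th percentile) by mouse for the 4 named called members, in KO and WT. Points are mice, the horizontal bar is the mean and the error bar the SD (n = 5). The KO and WT points do not overlap at any of the 4.

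The calls rested on which mice were compared. The number of members called was 62 without KO replicate 3 (3.24%, against 4.18% of all probes) and 122 without WT replicate 3 (6.38%, against 7.5%). Leaving out any other single mouse lowered it. Omitting KO replicates 1, 2, 4 or 5 in turn gave 8, 6, 11 and 4 members, or 0.419%, 0.314%, 0.576% and 0.209% of them, against 0.617%, 0.466%, 0.825% and 0.308% of all probes. Omitting WT replicates 1, 2, 4 or 5 gave 13, 4, 5 and 9 members, or 0.680%, 0.209%, 0.262% and 0.471%, against 0.839%, 0.395%, 0.395% and 0.724%. Without both mice numbered 3, 86 members were higher in KO (4.50%, against 4.88% of all probes) and 220 were lower (11.5%, against 11.9%). The members followed the background there too. Within slide 1, 2 members were called (0.105%, against 0.187% of all probes). A fit that blocks on slide and array row rests on KO replicate 3 against 3 WT mice within row 2. There limma called 0 members, against 0.0143% of all probes, and 89 members (4.66%) had an unadjusted p under 0.05, against 4.87%. All 4 named sites lost their calls in that fit. The 22 members called with all mice were all called again when KO replicate 3, WT replicate 3 or both were left out.

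The change between genotypes ran with the input level, among members and other sites alike but not equally. From bin 1 to bin 8, the median log2 KO minus WT of the members was -0.21, -0.09, 0.01, 0.06, 0.10, 0.14, 0.14 and 0.21. In the other expressed sites of the same bins it was -0.24, -0.15, -0.11, -0.10, -0.05, -0.04, -0.01 and 0.02. In this main fit the members lay above the other sites in each of these 8 bins. With slide and array row blocked, the members of bin 1 lay below the other sites (0.10 against 0.13). The difference between members and other sites was not tested, since the members and bins were chosen with the values known.

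Among the 67 bright members, 57 (85.1%) had a higher mean in KO, with a median of 0.19, while 53.7% of the 5192 other sites in those bins did, with a median of 0.02. Of the 67, 1 was called (1.49%), as were 105 of the 5192 other sites (2.02%). Their median scaled input was -0.38, -0.18, -0.60, -0.55 and -0.16 in KO replicates 1 to 5 and -0.93, -0.52, -0.13, -0.67 and -0.58 in WT replicates 1 to 5. The highest of the 10 was WT replicate 3, and the genotypes overlapped. Their counterparts in those bins had medians of 0.52 to 0.57 on every array. These sites lie close to the percentile subtracted from each array, so the scaling itself largely holds their level constant. Their median change of 0.02 and their share of 53.7% therefore depend on the scaling. A constant subtracted from an array moves both groups alike, so it does not change the gap between them. What sets that gap was not tested. With spike-in scaling the median change was 0.38 in the bright members and 0.22 in the other sites.

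Array brightness moved in part with the scaled input of the bright members. The median Cy3 signal of the expressed sites was 64.7, 69.1, 54.2, 40.6 and 78.6 units in KO and 38.0, 55.7, 56.8, 50.3 and 35.8 units in WT. The 4 arrays with the highest bright-member input (WT replicate 3 and KO replicates 5, 2 and 1) are also the 4 brightest. WT replicate 3, WT replicate 2 and KO replicate 3 were nearly equal in brightness (56.8, 55.7 and 54.2 units). Their bright-member inputs were -0.13, -0.52 and -0.60. The part of array brightness in the result was not tested. The median of the bright members was 0.12 with WT replicate 1 left out, 0.12 with KO replicate 2 left out and 0.32 with both mice numbered 3 left out. Within slide 1 it was 0.17, against 0.01 in the other sites. When slide and array row were blocked both were near 0 (-0.0019 and -0.0024). In bin 1 the members then turned from -0.21 to 0.10 and the other sites from -0.24 to 0.13. Quantile normalization left the bright members at 0.20 and moved bin 1 to 0.0085. Within slide 1, row 1 held only KO mice, and KO replicate 3 was the only KO mouse in row 2, so genotype and row can be separated there only through that mouse. The WT mice in row 1 are both on slide 2.

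The member that varied most between mice of 1 genotype was ASMM10m6ADRACA1000844844 (SD 0.837). Its scaled input was -4.12, -4.33, -2.39, -4.04 and -4.28 in KO and -2.60, -2.97, -4.06, -2.02 and -1.95 in WT. KO replicate 3 lay among the WT values and WT replicate 3 among the KO values. The fitted change of -1.11 did not pass (SE 0.44, limma adjusted p = 0.196). The same 2 mice are those whose removal raised the number of calls, and this site was picked for its spread, not for its change.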

How the data were processed

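Spot intensity was deposited by the authors as Agilent Feature Extraction 11.0.1.1 output (submitters' processing notes). Per the file headers, the processed signal had its background subtracted and its dyes normalized within each array, which can hide a shift that most sites share. A deposited table of log2 values holds no member, and its scaling constant could not be traced to the labels. Members and lists were chosen with earlier results of these data known.

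Control and outlier spots were left out (3 input values of 3 members). Processed Cy3 was taken as log2, with no pseudocount, minus each array's 75th percentile over probes that passed the Cy3 flag on 5 or more of 10 arrays. The genotypes were compared by limma 3.58.1 in R 4.3.3 (lmFit, eBayes), with Benjamini-Hochberg adjustment over all 13941 probes and a threshold of 0.05, after tests on simulated data. Cy5 levels, ratios and limits came from background-subtracted signals before dye normalization. Named sites were the 2 largest called changes per direction without overlap, the 2 brightest members, the dimmest and the most variable. Deviations of mice with the same number correlated at -0.25 to 0.18, so the main fit did not pair them. So few correlations cannot exclude pairing, and a fit with the replicate number as a block is given below. Dyes were not swapped, so dye and enrichment cannot be told apart. Alternatives were other scalings, background corrections, filters, blocks and left-out mice.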

Additional observations from a re-analysis of the deposited data

Results flagged for a closer look

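Of 28 groups of 5 mice tested over the values above, 1 held a mouse far from the others, and chance flags about 5% of such groups. It was the scaled input at ASMM10m6ADRACA1000844844, where KO replicate 3 had -2.39 and the closest other KO mouse had -4.04.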

How the results depend on the processing

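The number of members called was 22 (4 higher, 18 lower) and that of all probes 232. Quantile normalization called 25 members (12 higher, 13 lower). Spike-in scaling called 0 members with limma (171 at an unadjusted p under 0.05) and 5 probes, and it moved the median change of all probes by 0.19. Normexp called 0 members (290 at an unadjusted p) and 27 probes. The deposited value table called 27 probes, holds no member and gave no value for their count or level. Slide as a block called 2 members and 27 probes, slide 1 alone 2 and 26, and slide with array row 0 and 2. With the replicate number as a block the counts were 0 members (268 at an unadjusted p) and 10 probes. Leaving out 1 mouse gave 4 to 122 members and 43 to 1046 probes, and leaving out both mice numbered 3 gave 306 and 2334. Over 23 alternatives the call of ASMM10m6ADRACA1002228974 was kept in 19, ASMM10m6ADRACA1003096434 in 10, ASMM10m6ADRACA1004279584 in 9 and ASMM10m6ADRACA1001486204 in 9. ASMM10m6ADRACA1003096434 turned to -0.024 with normexp. The members numbered 158 by the positive-and-significant flag and 1912 to 2271 without 1 mouse. Their level relative to other sites moved from -1.84 to -0.74 with normexp and to -1.90 when chosen on slide 1. The normexp offset of 50 units by itself narrows log2 gaps between dim and bright sites. The share of members in bin 1 was 47.7%. It was 48.4% with the Cy3 signal before dye normalization and 49.2% when members were chosen on slide 1. The dimmest of 20 bins held 48.0%. For the median change by level, chosen after seeing the data, bin 1 moved from -0.21 to 0.0085 with quantile normalization, -0.019 with spike-in scaling and 0.10 with slide and row. It was -0.25 to -0.15 without 1 mouse. Bins 7 to 10 moved from 0.19 to -0.0019 with slide and row, and lay at 0.12 to 0.27 without 1 mouse. Where an alternative drops mice, fewer samples enter, and the normexp offset compresses dim signals. Otherwise the cause was not tested. Dim Cy3 and Cy5 signals near background limit what can be said of bins 1 to 3.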
